A study of Mus musculus with 4 samples.

Results

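The Kcn genes encode potassium channels and their accessory subunits. The family was taken as every row of the deposited expression matrix whose gene symbol begins with Kcn, which gave 63 of 14405 genes. Of these, 61 are channel or subunit genes and 2 are antisense RNAs of Kcnmb4. Kcn genes outside these rows were not analysed here. RNA was sequenced in bulk from dorsal root ganglia, which house the cell bodies of sensory neurons, of mice aged 10 weeks and of mixed strain. There were 2 wild type samples (WT) and 2 mutant samples (Mut). The mutants had the genotype Prdm12-/Fl; AvilCreERT2/+, that is 1 Prdm12 allele deleted, the other flanked by loxP sites, and a Cre recombinase fused to a modified oestrogen receptor and driven from Avil, a gene of sensory neurons. Such a Cre acts after tamoxifen. The sources used here give no dose or timing of tamoxifen. They do not say whether the wild type mice carried the Cre or received the drug, so loss of Prdm12 cannot be told apart from either. Separate animals are not named in the labels, so the p-values below rest on how far these 4 libraries differ, and part of that spread may be technical. The question behind the comparison, by the title of the series, is what loss of the transcription factor Prdm12 does in mature nociceptors, the neurons that sense pain.

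Potassium channels let potassium leave the cell and so set the resting potential, end the action potential and limit repetitive firing. Voltage-gated (Kv) channels assemble from several pore subunits and bind accessory subunits that change their gating or their delivery to the membrane. Inward rectifiers (Kir) and two-pore domain (K2P) channels hold the resting potential, and the Slo, SK and IK channels open with intracellular calcium or sodium, apart from the Slo channel encoded by Kcnu1. In sensory ganglia, different neuron types carry different sets of these channels. Glia, vessels, meninges and blood cells carry others.

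The data were FPKM, in which fragment counts are divided by transcript length and library size, so levels may be compared between genes. FPKM totals ran from 620018 to 686830 per sample, and the number of reads behind them is unknown. The ganglion markers were present: Avil stood between 78.4 and 164 FPKM, and the nociceptor gene Calca, which encodes the neuropeptide CGRP, between 1547 and 1861 FPKM. Values below are given for sample 1 and then sample 2 of each group. Prdm12 had 7.58 and 10.7 FPKM in the wild types against 1.05 and 1.5 FPKM in the mutants (log2 difference -2.14, limma adjusted p = 0.180). The authors' deposited table of significant genes lists it with a log2 fold change of -2.84 and a q-value of 0.00742. Of the libraries, wild type 2 alone had high Xist, at 21.1 FPKM against at most 0.0295 FPKM in the other 3, and the same library had 0.0252 FPKM of the Y-linked gene Eif2s3y against at least 21.3 FPKM. Skeletal muscle markers summed to 337 and 2604 FPKM in the wild types, against 154 and 5140 FPKM in the mutants. By the muscle markers, the samples numbered 2 thus stood apart from the samples numbered 1 in both groups. By Xist and Eif2s3y, only wild type 2 stood apart, reading as female where the other 3 libraries read as male. Sex was therefore not balanced between the groups. Differences were tested with limma on log2(FPKM + 1), mutant minus wild type, with p-values adjusted over all 14040 genes tested. On this scale the change of genes with few FPKM is understated.

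Of the 63 Kcn genes, 60 reached a mean of 1 FPKM in either group and were tested. Kcng4, Kcnj11 and Kcnq5 did not. Among those tested, 6 reached that mean in 1 group only (Kcnb2, Kcne2, Kcnf1, Kcnh1 and Kcnma1 in the mutants, Kcnj15 in the wild type), so no count below supports a difference by itself. The family was led by a few genes, most of them accessory subunits. Its 5 most abundant members, among them the K2P channel gene Kcnk1, held between 37.3% and 45.4% of the summed Kcn FPKM in each sample. Accessory subunits as a class held between 45.0% and 49.6%, voltage-gated pore subunits between 14.2% and 19.9%, and K2P channels between 12.1% and 14.9%. In all, 13 members had a mean of at least 10 FPKM over the 4 samples and 19 a mean of under 2 FPKM.

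No Kcn gene passed the test between mutant and wild type: limma called 0 of 60 members at an adjusted p of 0.05, and 0 of 14040 genes (0% higher and 0% lower). At an unadjusted p under 0.05, 5 members were higher (8.33%, against 1.35% of all genes tested) and 3 were lower (5%, against 3.01%), where 4.36% of all genes tested passed in either direction. The groups did not overlap for 13 members that were higher and 6 that were lower, 31.7% together, against 12.5% higher, 19.6% lower and 32.1% together over all genes tested. The share of members without overlap was thus near that of all genes, with more of them on the higher side. The all-gene shares, 12.5% higher and 19.6% lower, are the reference for each count without overlap given below for a role or list. The median log2 difference was 0.18 over the 60 members and 0.18 over all 63 rows, against -0.0048 over all genes tested. With wild type 1 left out the median of the members was 0.02, with mutant 2 left out 0.03, with wild type 2 left out 0.36, and with mutant 1 left out 0.30. By subfamily letter, the members tested had these median log2 differences. Among voltage-gated pore subunits the median was 0.28 for Kcna, 0.26 for Kcnc, 0.31 for Kcnd and 0.38 for Kcnh. For accessory subunits it was 0.31 for Kcnab, 0.11 for Kcnip, -0.12 for Kcne and -0.39 for Kcnmb. Elsewhere it was 0.23 for Kcns, -0.06 for Kcnj, 0.0054 for Kcnk, -0.012 for Kcnn and -0.12 for Kcnt. With 1 sample left out these medians moved widely, from 0.026 to 0.46 for Kcna, 0.080 to 0.51 for Kcnc, -0.058 (without wild type 1) to 0.67 for Kcnd and 0.030 to 0.63 for Kcnh. The Kcnmb median stayed below 0, from -0.51 to -0.28, as it had to with 2 of its 3 members lower without overlap. That of Kcne ran from -0.18 to -0.025. Of the 60 members, 52 had a log2 difference that moved by over 1.5 times or turned when 1 of the 4 samples was left out, and 21 turned. The authors' deposited table of significant genes holds 0 of the 63 members, against 1.03% of the genes in the matrix. By its name, that table also required a log2 fold change of 1. On log2(FPKM + 1), 1 of the 60 tested members had a difference beyond 1 in size, so few members could have entered it.

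**Figure D1:**
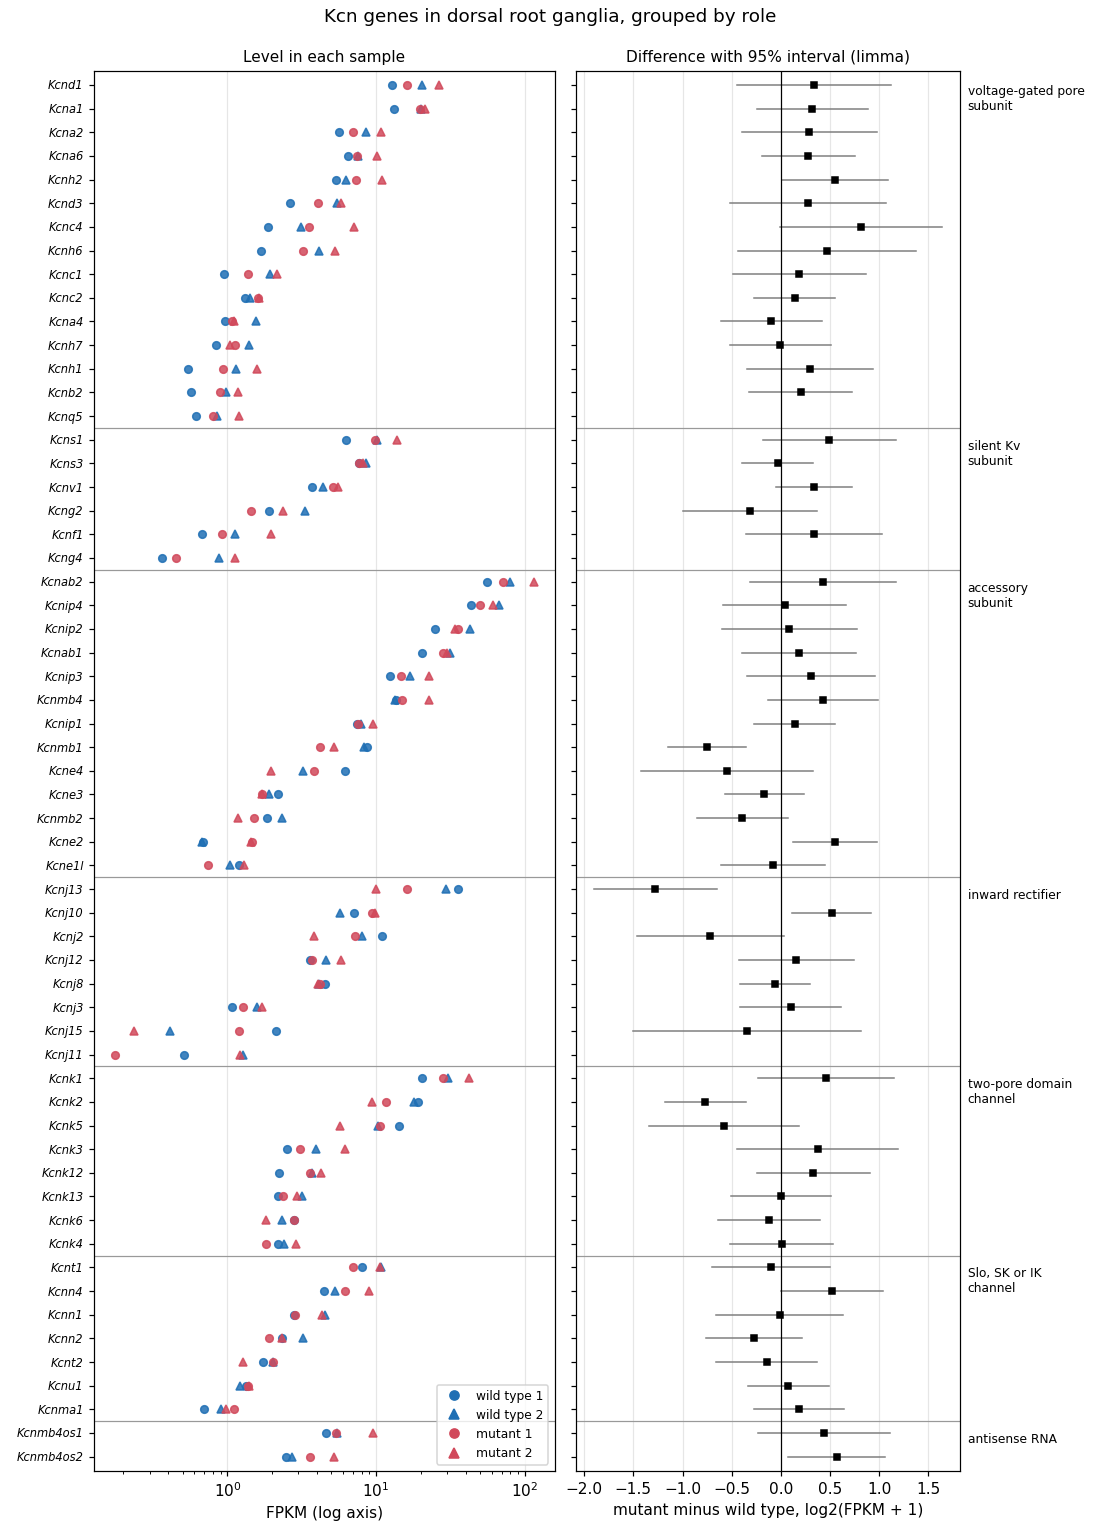
Left, FPKM of 59 of the 63 Kcn genes in each sample on a log axis, grouped by role and ordered by mean level. Right, the mutant minus wild type difference on log2(FPKM + 1) of those tested with its 95% interval from limma; Kcnj13 is the member furthest below 0, at -1.28, and Kcnc4 the furthest above, at 0.82.

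The members that stood furthest from their spread were lower in the mutants, and they were Kcnj13, Kcnk2 and Kcnmb1. They belong to different structural classes. Kcnj13 encodes Kir7.1, an inward rectifier of transporting epithelia. Kcnk2 encodes TREK-1, a K2P channel opened by membrane stretch and heat. Kcnmb1 encodes the beta 1 subunit of the calcium-activated BK channel, known from smooth muscle. The upstream sequences of these 3 genes and of Kcnj10, the member furthest on the higher side by its test statistic, are shown because their groups did not overlap and they had the smallest p-values in their direction. Each line gives the 250 bases before the RefSeq start on GRCm38.p6, 5′ to 3′ along the gene's strand. They lie at chr1:87394730-87394979 (minus strand, Kcnj13), chr1:189402274-189402523 (minus strand, Kcnk2), chr11:33962763-33963012 (plus strand, Kcnmb1) and chr1:172340960-172341209 (plus strand, Kcnj10). No GENCODE exon falls in any of the 4 windows. For Kcnk2 the table holds 4 starts, and the one furthest upstream is shown. Capitals mark matches, on either strand, to the TATA box (TATAAA), the GC box (GGGCGG, or CCGCCC when it lies on the other strand), the E-box (CANNTG) and the CArG box of serum response factor.
Kcnj13: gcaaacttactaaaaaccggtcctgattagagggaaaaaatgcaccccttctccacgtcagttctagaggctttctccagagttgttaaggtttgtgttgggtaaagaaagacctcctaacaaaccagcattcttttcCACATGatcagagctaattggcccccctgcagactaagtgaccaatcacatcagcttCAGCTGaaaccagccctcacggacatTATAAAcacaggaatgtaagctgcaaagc
Kcnk2: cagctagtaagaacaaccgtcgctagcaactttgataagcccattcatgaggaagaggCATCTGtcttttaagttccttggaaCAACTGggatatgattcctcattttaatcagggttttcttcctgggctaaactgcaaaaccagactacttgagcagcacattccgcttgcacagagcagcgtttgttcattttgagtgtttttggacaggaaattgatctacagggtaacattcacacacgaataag
Kcnmb1: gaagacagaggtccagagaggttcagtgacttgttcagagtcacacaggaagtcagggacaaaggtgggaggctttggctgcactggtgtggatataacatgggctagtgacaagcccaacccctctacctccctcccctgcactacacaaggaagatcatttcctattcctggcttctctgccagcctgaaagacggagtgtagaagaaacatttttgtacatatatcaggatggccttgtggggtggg
Kcnj10: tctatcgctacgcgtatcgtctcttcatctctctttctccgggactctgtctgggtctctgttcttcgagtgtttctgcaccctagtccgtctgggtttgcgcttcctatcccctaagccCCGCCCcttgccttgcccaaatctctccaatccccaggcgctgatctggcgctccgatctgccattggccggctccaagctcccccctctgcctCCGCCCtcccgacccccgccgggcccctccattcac
The Kcnj13 window held 1 TATA box, starting at -29 from the gene's start, and 2 E-boxes, at -112 and -55. The Kcnk2 window held 2 E-boxes, at -192 and -167, and the Kcnmb1 window held 0 matches. The Kcnj10 window differed from these in its bases: it held 2 GC boxes, at -130 and -36, and 17 CpG pairs, against 3, 5 and 1 in Kcnj13, Kcnk2 and Kcnmb1 and a median of 6 over all promoters. Of the 32851 promoter windows of this length, 12.4% held a TATA box, 32.7% a GC box, 66.2% an E-box and 1.47% a CArG box. The table held promoters for 48 of the 63 members. The matches describe the letters only.

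Kcnj13 (ENSMUSG00000079436.3, chromosome 1, 87386363 to 87394729 in mm10) was at 35.4 and 29.7 FPKM in the wild types, against 16.2 and 10.1 FPKM in the mutants. Both mutants were below both wild types, by 2.48-fold of the means (32.5 ± 4.06 against 13.1 ± 4.37 FPKM, SD, n = 2 each). The log2 difference was -1.28 (standard error 0.250, 95% interval -1.90 to -0.649, limma adjusted p = 0.541). In the GENCODE annotation, 49.1% of its exon bases also lie in exons of Gigyf2 on the opposite strand, and the sources used here do not say whether reads were counted by strand. Gigyf2 stood at 8.27 and 9.55 FPKM in the wild types, against 7.93 and 8.57 FPKM in the mutants, with overlapping groups.

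Kcnk2 (ENSMUSG00000037624.15, chromosome 1, 189207930 to 189402273) was at 19.0 and 17.9 FPKM in the wild types, against 11.6 and 9.33 FPKM in the mutants. The groups lay apart by more than the spread within either, 18.5 ± 0.768 against 10.5 ± 1.61 FPKM (SD, n = 2 each), 1.76-fold. The log2 difference was -0.77 (standard error 0.164, interval -1.18 to -0.359, limma adjusted p = 0.601). Kcnmb1 (ENSMUSG00000020155.2, chromosome 11, 33963013 to 33973641) was at 8.71 and 8.35 FPKM in the wild types, against 4.17 and 5.18 FPKM in the mutants, 1.83-fold lower by the means. Its log2 difference was -0.75 (standard error 0.158, limma adjusted p = 0.601). In all 13 alternative analyses, each of these 3 genes stayed lower in the mutants, with log2 differences from -1.60 to -0.96 for Kcnj13, -0.995 to -0.605 for Kcnk2 and -0.97 to -0.49 for Kcnmb1. For genes without overlap, leaving out a sample or changing the pseudocount cannot turn the sign. Only the settings that rescale the libraries could have done so.

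Of the other members that were lower without overlap, Kcnj2 was the most abundant. It encodes Kir2.1, an inward rectifier of muscle and endothelium, and was at 10.9 and 8.01 FPKM in the wild types, against 7.23 and 3.82 FPKM in the mutants (log2 difference -0.72, limma adjusted p = 0.994). The gap between the groups was small beside the spread within them, and without mutant 2 the log2 difference was -0.33. Kcnmb2, another BK beta subunit, was at 1.84 and 2.33 against 1.51 and 1.19 FPKM. Kcne3, a single-pass subunit of epithelial Kv channels, was at 2.19 and 1.91 against 1.72 and 1.71 FPKM. Kcnj13, Kcnk2, Kcnj2 and Kcne3 were each highest in wild type 1 and lowest in mutant 2, whereas Kcnmb1 was lowest in mutant 1 and Kcnmb2 highest in wild type 2. The same order, with wild type 2 and mutant 1 close to each other, was seen in Kcnk5, an acid-sensitive K2P channel, at 14.4 and 10.3 against 10.6 and 5.75 FPKM. There the groups overlapped, as they did for the single-pass subunit gene Kcne4 at 6.22 and 3.21 against 3.81 and 1.96 FPKM.

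Of the 10 listed fibroblast and meninges markers, 5 were lower without overlap and 0 higher, and their summed level was 17985 to 19222 FPKM in the wild types and 6130 to 9111 FPKM in the mutants, with none at 0. Ptgds, a prostaglandin synthase gene of the meninges, made up most of the gap in that sum, at 13098 and 13055 FPKM in the wild types, against 3201 and 3025 FPKM in the mutants. Without it, a split made after the values were seen, the other 9 markers summed to 6124 and 4930 against 5910 and 3105 FPKM, with overlapping groups. The remaining markers that were lower without overlap were Igf2, Slc6a13, Foxc1 and Cldn11. Mural cell markers, which include smooth muscle, summed to 205 to 280 FPKM in the wild types and 248 to 249 FPKM in the mutants. Of these 9 markers, 1 was lower without overlap. Des, also in that list, was at 5.88 and 26.6 FPKM in the wild types, against 4.23 and 53.9 FPKM in the mutants. Its samples had the same order as the skeletal muscle sums, and the part of muscle in the mural sum was not tested. Kcnj8, a channel gene of pericytes and itself in that mural list, was at 4.52 and 4.16 against 4.18 and 4.06 FPKM. The part of these cells in the lower values was not tested. In bulk tissue, fewer cells of a type and less RNA per cell cannot be told apart.

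**Figure D2:**
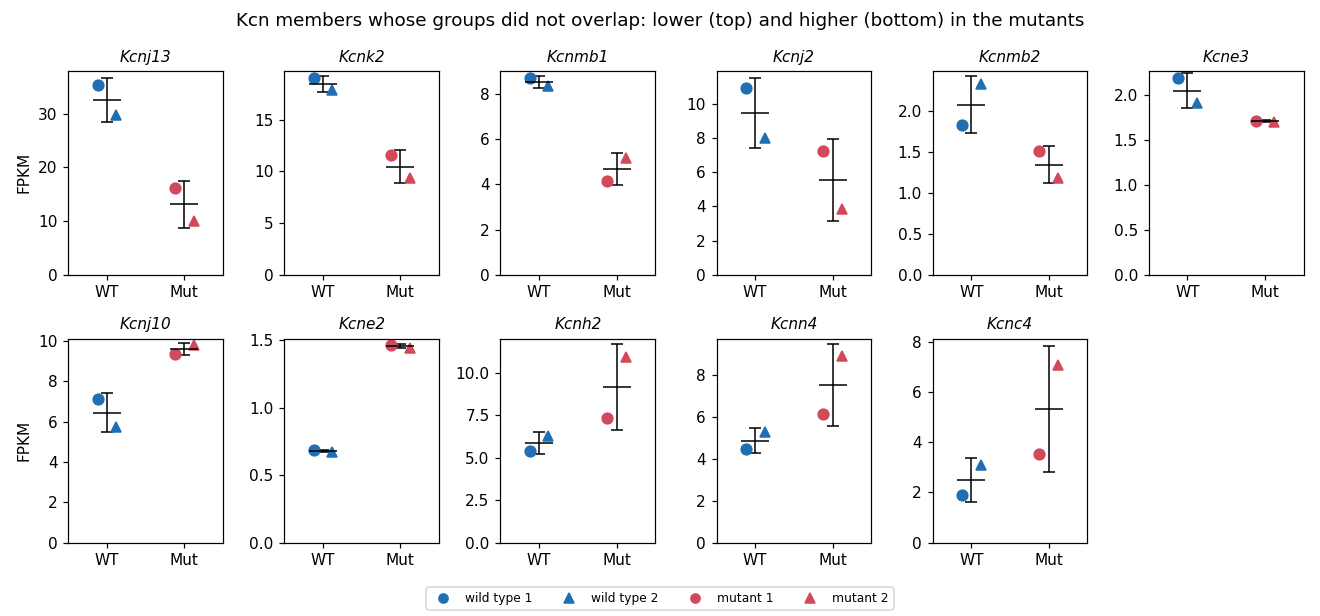
FPKM of 11 Kcn genes whose groups did not overlap, each on its own axis from 0; points are samples, bars the group mean and SD (n = 2 each). Kcnj13, Kcnk2 and Kcnmb1 in the top row show gaps wider than the spread of either group, and in the bottom row Kcnj10 and Kcne2 do so, while Kcnh2, Kcnn4 and Kcnc4 are spread widely within the mutants.

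On the higher side, Kcnj10 and Kcne2 had the smallest p-values. Kcnj10 encodes Kir4.1, the potassium-buffering inward rectifier of satellite glia, the cells that wrap sensory neuron bodies. It was at 7.13 and 5.76 FPKM in the wild types, against 9.39 and 9.82 FPKM in the mutants, 1.49-fold higher by the means (6.45 ± 0.964 against 9.60 ± 0.306 FPKM, SD, n = 2 each). Its log2 difference was 0.52 (standard error 0.158, interval 0.118 to 0.913, limma adjusted p = 0.960). It stayed above 0 in all 13 alternative analyses, from 0.29 to 0.65. Here too only rescaled libraries could have turned the sign, since the groups did not overlap. The 8 satellite glia markers, of which Kcnj10 is 1, summed to 5831 to 6952 FPKM in the wild types and 6004 to 6194 FPKM in the mutants. Of them, 3 were higher, Kcnj10 included, and 2 lower without overlap. Apoe made up most of that sum, at 4089 and 5474 FPKM in the wild types, against 4315 and 4787 FPKM in the mutants. Schwann cell and myelin markers summed to 8370 to 10405 FPKM in the wild types and to 10289 FPKM in mutant 1 and 21416 FPKM in mutant 2, with 6 of 12 higher and 0 lower without overlap. The part of either cell type in the level of Kcnj10 was not tested.

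Kcne2 encodes a single-pass subunit that pairs with Kv7 and ERG channels. It was at 0.685 and 0.672 FPKM in the wild types, against 1.47 and 1.45 FPKM in the mutants, 2.15-fold by the means (log2 difference 0.55, limma adjusted p = 0.960). The samples of each group nearly coincided, but the level was low throughout, and the gene reached the minimum of 1 FPKM only through the mutants. Kcnh2, the ERG channel that repolarises excitable cells, was at 5.40 and 6.31 against 7.38 and 11 FPKM. Kcnn4, the calcium-activated IK channel known from red cells and lymphocytes, was at 4.46 and 5.29 against 6.15 and 8.91 FPKM. Their log2 differences were 0.55 and 0.52 (limma adjusted p = 0.994 for each), and without mutant 2 they were 0.29 and 0.29. Erythrocyte markers summed to 2949 to 3143 FPKM in the wild types and 5853 to 6066 FPKM in the mutants, with 5 of 5 higher without overlap. For lymphocyte and neutrophil markers 7 of 10 were higher without overlap and 0 lower, with sums of 1406 to 2166 and 2139 to 2820 FPKM. The part of blood cells in the level of Kcnn4 was not tested.

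The antisense RNA Kcnmb4os2 was the other member at an unadjusted p under 0.05 on the higher side. It was at 2.48 and 2.70 FPKM in the wild types, against 3.58 and 5.18 FPKM in the mutants (log2 difference 0.57, limma adjusted p = 0.994). Its neighbour Kcnmb4os1 was at 4.59 and 5.47 against 5.34 and 9.49 FPKM. Kcnmb4 itself, which encodes the neuronal BK beta subunit, was at 13.5 and 13.3 against 14.9 and 22.8 FPKM. All 3 were highest in mutant 2, without which the log2 difference of Kcnmb4 was 0.14, against 0.43 with it. The exons of Kcnmb4os1 and Kcnmb4os2 overlap those of Kcnmb4 over 43.1% and 34.2% of their bases. The shared bases are 10.7% and 20.8% of the Kcnmb4 exon bases. Without a stated strand, reads in the shared bases cannot be told apart. The BK pore gene Kcnma1 was low, at 0.696 and 0.903 against 1.11 and 0.978 FPKM.

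Among voltage-gated pore subunits, 18 were tested, and 5 were higher and 0 lower without overlap (against 12.5% and 19.6% of all genes tested). The median log2 difference was 0.29. Their summed level was 63.0 and 95.5 FPKM in the wild types, against 86.9 and 123 FPKM in the mutants, so the groups overlapped and the samples numbered 2 were the higher in each. The most abundant were Kcnd1 and Kcna1. Kcnd1, the Kv4.1 channel of the fast transient A-type current, was at 12.8 and 20.4 against 16.2 and 26.4 FPKM (log2 difference 0.33, limma adjusted p = 0.994). Kcna1, the Kv1.1 channel that brakes firing and lies beside the nodes of myelinated axons, was at 13.2 and 20.2 against 19.8 and 21.5 FPKM (0.32, limma adjusted p = 0.994). Its partner Kcna2 was at 5.63 and 8.61 against 7.01 and 10.9 FPKM, and Kcna6 at 6.49 and 7.55 against 7.49 and 10.1 FPKM. In the GENCODE annotation, 39.6% of the Kcna6 exon bases also lie in exons of Gm26673 on the opposite strand. Without mutant 2 the log2 difference of Kcna2 was 0.0044, against 0.29 with it, and without wild type 1 that of Kcna1 was 0.031. For Kcnd1 these were -0.0019 and 0.020. All 4 Kcna genes tested were higher in sample 2 than in sample 1 of both groups.

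Kcnc4, the Kv3.4 channel of fast inactivating currents, had the largest log2 difference on the higher side, 0.82, with a standard error of 0.329 (limma adjusted p = 0.994). It was at 1.88 and 3.11 FPKM in the wild types, against 3.54 and 7.08 FPKM in the mutants. The groups did not overlap, but mutant 1 was close to wild type 2, and without mutant 2 the log2 difference was 0.40. Kcnc1 and Kcnc2, of the same Kv3 subfamily, had log2 differences of 0.19 and 0.14. Kcnh6, an ERG channel, was among the genes that varied most between samples of 1 group, at 1.69 and 4.16 against 3.25 and 5.27 FPKM, and Kcnd3, the Kv4.3 channel, was another, at 2.63 and 5.46 against 4.08 and 5.81 FPKM.

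The silent Kv subunits, which make no channel alone but modify Kv2 channels, had 5 tested members and a median log2 difference of 0.33. Kcns1, the Kv9.1 subunit of myelinated sensory neurons, was at 6.29 and 10.2 FPKM in the wild types, against 9.88 and 13.8 FPKM in the mutants (log2 difference 0.49, limma adjusted p = 0.994), so wild type 2 lay above mutant 1, and without wild type 1 the log2 difference was 0.18. Kcnv1, the Kv8.1 subunit, did not overlap, at 3.72 and 4.38 against 5.14 and 5.57 FPKM (0.33, limma adjusted p = 0.994). Kcns3 stood at 7.70 and 8.50 against 7.62 and 8.17 FPKM, a log2 difference of -0.03 with an interval of -0.391 to 0.328. Kcng2 had lower means in the mutants, at 1.92 and 3.32 against 1.43 and 2.37 FPKM, and Kcnf1 higher ones, at 0.673 and 1.13 against 0.917 and 1.96 FPKM.

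The accessory subunits included the most abundant Kcn genes. Kcnab2, a beta subunit that binds the inner face of Kv1 channels, led the family in every sample, at 55.9 and 79.5 FPKM in the wild types, against 71.0 and 115 FPKM in the mutants (log2 difference 0.43, limma adjusted p = 0.994). Without mutant 2 its log2 difference was 0.088, and without wild type 1 it was 0.18. Kcnab1, its relative, was at 20.4 and 31.5 against 28.0 and 30.1 FPKM. Of the KChIPs, calcium-binding partners of Kv4 channels, Kcnip4 was at 43.4 and 67.1 against 50.4 and 60.9 FPKM, Kcnip2 at 24.8 and 42.9 against 35.4 and 34.0 FPKM, and Kcnip3 at 12.5 and 17.0 against 14.8 and 22.7 FPKM. The groups overlapped for each of these. The 13 tested accessory subunits had a median log2 difference of 0.09, with 2 higher and 3 lower without overlap, the latter being Kcnmb1, Kcnmb2 and Kcne3.

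Inward rectifiers were the 1 role with both mutants below both wild types in summed level, at 65.3 and 55.5 FPKM in the wild types, against 43.4 and 36.8 FPKM in the mutants. Their share of all Kcn FPKM was 14.8% and 9.79% in the wild types and 8.91% and 5.92% in the mutants. Kcnj13 carried most of this gap. The other Kcnj genes summed to 29.9 and 25.8 FPKM in the wild types, against 27.1 and 26.7 FPKM in the mutants, so without Kcnj13, a split made after the values were seen, the groups overlapped. Kcnj15 was at 2.11 and 0.411 against 1.21 and 0.235 FPKM, and its samples differed more by number than by genotype. Kcnj11, the pore of the ATP-sensitive channel of muscle and endocrine cells, was under the minimum, at 0.513 and 1.27 against 0.176 and 1.22 FPKM. Like the skeletal muscle markers it was higher in sample 2 of both groups, and the part of muscle in its level was not tested.

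Of the K2P channels, 8 were tested, with 0 higher and 1 lower (Kcnk2) without overlap and a median log2 difference of 0.0054. Kcnk1, the TWIK-1 channel, was the most abundant, at 20.4 and 30.5 FPKM in the wild types, against 28.4 and 42.1 FPKM in the mutants (log2 difference 0.46, limma adjusted p = 0.994), and its log2 difference was 0.18 without mutant 2 and 0.18 without wild type 1. The acid-sensitive channel gene Kcnk3 was at 2.52 and 3.96 against 3.06 and 6.22 FPKM, with the mutant spread resting on mutant 2. Kcnk4, the TRAAK channel of the same mechanosensitive group as Kcnk2, was at 2.2 and 2.40 against 1.83 and 2.90 FPKM, a log2 difference of 0.0097 with an interval of -0.514 to 0.533. Kcnk2 and Kcnk4 thus had different values in the mutants, but a difference between the 2 genes was not tested. In the GENCODE annotation, 12.2% of the Kcnk2 exon bases also lie in exons of A430027H14Rik on the opposite strand. For Kcnk4, 13.1% lie in exons of Catsperz on the same strand. Kcnk6 and Kcnk13 had log2 differences of -0.12 and 0.0012. In the Slo, SK and IK group, Kcnt1, the sodium-activated Slack channel of sensory neurons, was at 8.09 and 10.8 against 7.01 and 10.6 FPKM, with overlapping groups, and Kcnu1 was at 1.33 and 1.21 against 1.38 and 1.40 FPKM.

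Of the 60 tested members, 39 were higher in sample 2 than in sample 1 of both groups (65%, against 40.3% of all genes tested), and 10 were lower (16.7%, against 25.8%). The same kind of count set mutant 1 against wild type 1 and mutant 2 against wild type 2. In it, 35 members were higher and 14 lower in both pairs. As many members thus had 1 direction by genotype as by sample number, 49 each. The share of all genes was not taken for the genotype count, and the labels give these pairs only a shared number. All 7 members listed as known from myelinated sensory neurons were higher in sample 2 of both groups. Their median log2 difference between mutant and wild type was 0.32. The 12 listed markers of myelinated sensory neurons had a median of 0.068, with 7 above 0 and 5 below. Of these markers, 2 were higher and 2 lower without overlap. The 5 tested members listed as known from unmyelinated neurons had a median of 0.0097, with 1 (Kcnk2) lower, and 4 of them had the higher value in sample 2 of both groups. The 10 tested members listed as known from non-neuronal cells had a median of -0.14, with 2 higher (Kcnj10 and Kcnn4) and 3 lower (Kcnj13, Kcne3 and Kcnmb1) without overlap. The 14 pan-neuronal markers were all higher in sample 2 of both groups, and summed to 4356 and 6018 FPKM in the wild types, against 4724 and 7751 FPKM in the mutants. Their median log2 difference between mutant and wild type was 0.26, above the 0.18 of the Kcn members. With each library scaled to these markers, a setting added after the data were seen, the median of the Kcn members was -0.0051 and that of all genes tested was -0.22. Under that setting 0 members were higher at an unadjusted p under 0.05 and 2 were lower.

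**Figure D3:**
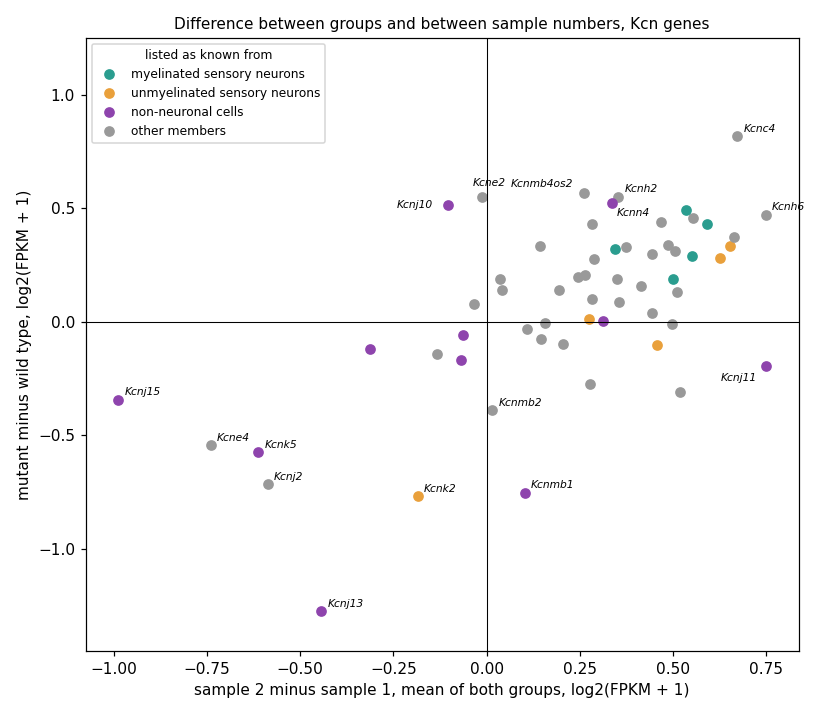
Each point is 1 of 59 Kcn genes, with the difference between sample 2 and sample 1 averaged over both groups on the x axis and that between mutant and wild type on the y axis, both on log2(FPKM + 1). The genes listed as known from myelinated neurons lie at the upper right, as do Kcnd1 and Kcnd3 of the unmyelinated list, Kcnn4 of the non-neuronal list and many others. Among those at the lower left are Kcnj13, Kcnk2, Kcnj2, Kcnk5, Kcne4 and, furthest left, Kcnj15.

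**Figure D4:**
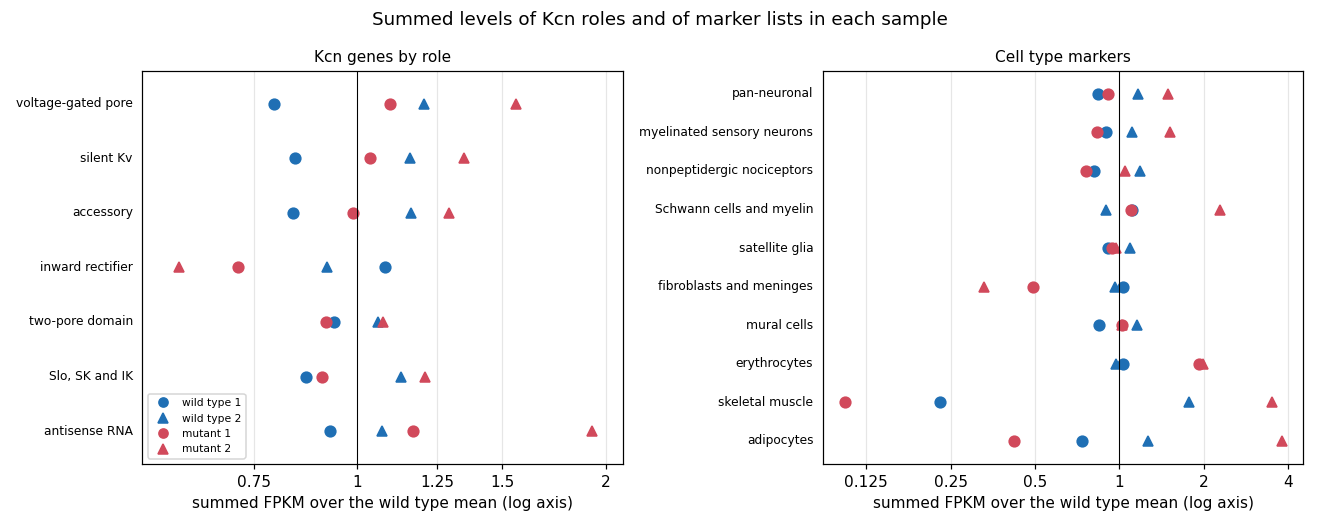
Summed FPKM of the Kcn roles (left) and of marker lists (right) in each sample, over the wild type mean, on log axes. Inward rectifiers (mostly through Kcnj13) and the fibroblast and meninges markers (mostly through Ptgds) lie below 1 in both mutants, and voltage-gated pore subunits and pan-neuronal markers are highest in mutant 2 and lowest in wild type 1.

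Genes outside the Kcn symbol that bind or share the work of potassium channels gave 36 tested genes, with 0 called by limma, 8 higher and 3 lower without overlap (against 12.5% and 19.6% of all genes) and a median log2 difference of 0.15. The hyperpolarisation-activated HCN channels, which carry a depolarising current against the potassium conductance, overlapped for Hcn2, the most abundant, at 8.79 and 11.7 FPKM in the wild types, against 11.1 and 20.2 FPKM in the mutants. Cntnap1, an axonal protein that borders the Kv1 channels at the paranode, was at 6.17 and 6.52 against 8.34 and 9.22 FPKM (log2 difference 0.41, limma adjusted p = 0.994). The scaffold genes Dlg1 and Dlg2, whose products cluster Kv1 and Kir channels, were lower in both mutants. Dlg1 was at 19.5 and 16.5 against 14.2 and 12.3 FPKM and Dlg2 at 8.12 and 6.34 against 5.57 and 4.68 FPKM (limma adjusted p = 0.994 for each). Of the same family, Dlg3 was lower without overlap, at 7.46 and 7.47 against 6.13 and 6.09 FPKM. Dlg4 went the other way without overlap, at 14.6 and 14.8 against 16.2 and 21.9 FPKM. Calm2, which encodes the calcium sensor calmodulin of SK and Kv7 channels, was the most abundant partner, at 898 and 1026 against 939 and 870 FPKM. Calm3 and Vapa had log2 differences of 0.23 and -0.02.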

How the data were processed

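RNA of dorsal root ganglia was sequenced in 2 wild type and 2 mutant samples, grouped and numbered by their titles. The authors deposited FPKM values for 14405 genes, each with at least 1 FPKM in at least 1 sample. They also deposited a list of significant genes, with log2 fold changes, a test score, p-values and q-values laid out as Cuffdiff writes them (per the file headers). The submitters' processing notes name TopHat2 2.1.2, Cufflinks 2.2.1, CASAVA and the build mm10. Settings, strandedness and the method of library scaling were not found in the labels. FPKM hold no counts, and only 6 genes were under 0.05 FPKM in 2 or more samples, so the reads behind a value could not be recovered.

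limma 3.58.1 in R 4.3.3 tested log2(FPKM + 1), its prior variance following the expression level, for the 14040 genes whose mean reached 1 FPKM in the wild types or the mutants, with Benjamini-Hochberg adjustment and a threshold of 0.05. Residual degrees of freedom were 2, and the prior added 3.44. An exact two-sided permutation test cannot go below 0.333 here. The script was tested on simulated data. The members, lists and tests were chosen with earlier results of these data known.

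Named genes were the 8 tested members in each direction with the largest moderated t among those without overlap (6 were lower), the most abundant of each subfamily, the 10 most abundant, the 6 most variable within a group, the members of the 3 Kcn lists by cell type, and the partners with the highest mean or t. Other members, Hcn2, Dlg3, Dlg4, Gigyf2 and the other genes that share exon bases were named after the values were seen. Coordinates are from GENCODE M21 and promoters from RefSeq, both on GRCm38, the assembly of mm10. The alternatives were 12 planned settings and 1 added later. Some genes that these rules name are not reported here, though they are included in the fit and in the counts.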

Additional observations from a re-analysis of the deposited data

How the results depend on the processing

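Kcnj13, Kcnk2, Kcnmb1 and Kcnj2 stayed lower and Kcnj10 stayed higher in the mutants under the main analysis and all 13 alternatives, and Kcne2 stayed higher in the 13 analyses that tested it. The groups of these genes did not overlap, so only the settings that rescale the libraries could have turned their sign. The count of members higher at an unadjusted p under 0.05, 5 in the main analysis, was 3 with a pseudocount of 5, 1 with a minimum of 5 FPKM, 3 without the trend in the variance prior, 16 with the replicate number as a block, 0 with libraries scaled to the pan-neuronal markers, and 0 (without mutant 2) to 14 (without mutant 1) with a sample left out. The count lower, 3, was 6 with the block and 3 to 6 with a sample left out. limma called 0 genes at an adjusted p of 0.05, 61 with the replicate block, 31 with the neuronal scaling and 0 to 5 with a sample left out; Kcnj13 was the 1 member among them, with the block (limma adjusted p = 0.0448). Same-numbered samples deviated together (r = 0.481 across 14040 genes, which are not independent), but with 2 pairs the labels give them only a shared number. The Kcn median was 0.02 to 0.36 with a sample left out. Of the genes at an unadjusted p under 0.05, 31.0% were higher in the main analysis, 40.6% with median ratios, 42.6% with quantile normalization, 43.8% with the block and 6.23% with the neuronal scaling. That scaling changed the sign of Kcnip4 (-0.21), Kcnu1 (-0.063), Kcnip2 (-0.15), Kcnab1 (-0.050), Kcnk4 (-0.17), Kcnk13 (-0.17) and Calm3 (-0.016). A pseudocount of 5 did so for Kcnk13 (-0.0017). Leaving out a sample gave log2 differences on both sides of 0 for Kcnd1 -0.0019 to 0.67, Kcnip4 -0.27 to 0.35, Kcnt1 -0.37 to 0.17, Kcnip2 -0.30 to 0.47, Kcnab1 -0.11 to 0.49, Kcnj15 -0.91 to 0.075, Kcnd3 -0.14 to 0.69, Kcnk3 -0.041 to 0.79, Kcnc1 -0.11 to 0.48, Kcnk4 -0.22 to 0.24, Kcnk6 -0.34 to 0.097, Kcnk13 -0.20 to 0.20, Calm2 -0.18 to 0.010, Vapa -0.092 to 0.056. The cause of these moves was not tested. A fit without 1 sample assumes that the lone sample of its group varies like the other group. Read depth is unknown, so differences among the 19 members under 2 FPKM have no counting error to be read against.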
